A study of Mus musculus with 18 samples.

Results

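The data describe 10 ion channel genes of microglia, the resident macrophages of the brain, in cultured primary mouse cells of 6 genotypes. The genes encode 5 potassium channels (Kcnn4, Kcna3, Kcnj2, Kcnk6 and Kcnk13), the proton channel Hvcn1, the cation channel Trpv2 and 3 subunits of the volume-regulated anion channel (Lrrc8a, Lrrc8c and Lrrc8d). They were chosen by name and function from the 50686 genes of the deposited count table, with their CPM (counts scaled to library size) in every library already known. Their levels are therefore a description, and the p-values given below are the record of one fit over all genes, not independent evidence for this selection. Of the 10 genes, 9 had enough reads to be among the 13447 genes tested, and Kcna3 did not.

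Microglia were grown from the forebrains of C57BL/6 pups at postnatal day 2, shaken off mixed cultures and cultured again, so all groups share this culture. RNA was sequenced from 3 libraries of each genotype: WT, Tbk1+/- (1 allele of the kinase gene Tbk1 lost), Tak1ΔM/+ (1 altered allele of the kinase gene Tak1, symbol Map3k7), Tbk1+/-;Tak1ΔM/+ (called double heterozygous), Tbk1+/-;Ripk1D138N/D138N (called Ripk1 homozygous) and Tbk1+/-;Tak1ΔM/+;Ripk1D138N/+ (called triple heterozygous). All 3 combined genotypes carry the Tbk1+/- allele. Ripk1D138N encodes a form of the kinase RIPK1 without kinase activity. The labels name no Cre driver for the ΔM allele and do not say whether the replicates came from separate animals or cultures, so the p-values measure only the spread between these libraries.

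TBK1 and TAK1 are kinases of innate immune signalling, and both restrain the activation of RIPK1, which can drive cell death and inflammation. Ion channels set the membrane potential and volume of microglia. Outward potassium current keeps the membrane negative while calcium enters, and potassium loss is a known trigger of the NLRP3 inflammasome. The proton channel carries away the charge and acid left by the phagocyte NADPH oxidase, and the LRRC8 channels release chloride and small organic solutes when a cell swells.

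The sequences upstream of 3 of the genes are shown because, of the 9 members tested, Kcnn4 and Lrrc8c varied most across the 18 libraries relative to their means, and Kcnk13 least. Each is the 250 bases before the annotated start site in RefSeq (GRCm38.p6, plus strand, 5′ to 3′), and 8 of the 10 genes had such an entry. The GENCODE M21 gene of Lrrc8c starts at 105519388, before this RefSeq start site, so the end of the stretch shown lies inside that gene. Distances below are from the RefSeq start site. Capitals mark matches to the motifs searched on either strand.
Kcnn4, chr7:24370013-24370262: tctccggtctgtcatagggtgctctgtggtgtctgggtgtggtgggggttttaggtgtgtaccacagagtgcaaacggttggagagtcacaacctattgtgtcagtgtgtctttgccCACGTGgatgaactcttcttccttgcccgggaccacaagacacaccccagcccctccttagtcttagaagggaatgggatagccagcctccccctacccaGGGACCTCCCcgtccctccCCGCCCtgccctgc
Lrrc8c, chr5:105519221-105519470: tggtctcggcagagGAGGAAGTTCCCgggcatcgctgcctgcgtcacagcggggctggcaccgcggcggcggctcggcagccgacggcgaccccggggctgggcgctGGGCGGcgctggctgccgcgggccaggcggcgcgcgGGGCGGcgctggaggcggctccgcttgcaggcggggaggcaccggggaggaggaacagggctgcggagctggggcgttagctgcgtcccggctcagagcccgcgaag
Kcnk13, chr12:99964249-99964498: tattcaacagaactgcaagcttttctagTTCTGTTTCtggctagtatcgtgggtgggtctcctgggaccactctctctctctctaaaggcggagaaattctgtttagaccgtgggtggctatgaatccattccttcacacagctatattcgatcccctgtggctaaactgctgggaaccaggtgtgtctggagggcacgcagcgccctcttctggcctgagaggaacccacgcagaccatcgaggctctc
The motifs were AP-1 (TGANTCA), PU.1 (GAGGAAGT), the E-box (CACGTG), the GC box (GGGCGG), the ISRE core (GAAANNGAA) and the NF-kB consensus. Upstream of Kcnn4 the NF-kB consensus matched 33 bases, a GC box 14 bases and an E-box 133 bases before the start site. Upstream of Lrrc8c a PU.1 match at 236 bases and an NF-kB match at 234 bases overlapped, and GC boxes lay at 143 and 107 bases. The only match upstream of Kcnk13 was an ISRE core at 222 bases. Among 32544 windows of 300 bases around mouse start sites, 8.49% held the NF-kB consensus, 3.11% the PU.1 motif, 35.9% the GC box, 7.17% the E-box, 8.53% the ISRE core and 7.79% the AP-1 motif. These matches are letters in a window and were not tested as binding sites.

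The libraries held 8016559 to 22989116 counted reads. The summed level of 12 microglia markers was 5661 to 7308 CPM, but Siglech was at 0 in 14 of 18 libraries and Tmem119 reached 6.56 CPM at most. Of the 11 microglia markers tested, 2 fell in the double heterozygotes against WT, beside 6.07% of all genes called. Gpr34 fell from 131 ± 38.9 to 25.5 ± 6.17 CPM and Itgam from 82.2 ± 13.9 to 42.8 ± 1.32 CPM (SD, n = 3), and their part in the channel results was not tested. The summed level of 8 border macrophage and monocyte markers was 586 to 1343 CPM in Tbk1+/- and 444 to 651 CPM in WT. Tbk1 RNA, the check of the labels, was 50.5 to 65.6 CPM in Tbk1+/- and 104 to 149 CPM in WT. In 5 libraries labelled Tbk1+/- together with a Ripk1D138N allele it lay between 107 and 131 CPM, at or above the lowest WT library. These were replicates 1 and 3 of the libraries labelled Ripk1 homozygous and all 3 of those labelled triple heterozygous, so every comparison with them below goes by a label that their Tbk1 RNA goes against. Map3k7 averaged 13.5 ± 4.94 CPM in WT and 8.76 ± 1.33 CPM in Tak1ΔM/+ (SD, n = 3), but the double heterozygotes held 15.8, 11.4 and 6.57 CPM and the libraries labelled triple heterozygous 10.2, 11.6 and 7.0 CPM, overlapping the WT range of 10.4 to 19.2 CPM. Map3k7 RNA therefore does not check the Tak1ΔM/+ label of those libraries, and which part of the gene the allele removes was not tested. Ripk1 averaged 20.0 ± 3.52 CPM in WT and 58.6 ± 11.3 CPM in the double heterozygotes (SD, n = 3).

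In WT cells the most abundant of the 10 RNAs per length was Trpv2. On the scale of CPM per kilobase of annotated exon, Trpv2 averaged 31.7 ± 5.75 and Kcnk13 26.1 ± 4.82 (SD, n = 3), and their ranges overlapped. Hvcn1 followed at 16.5 ± 2.70 and Kcnn4 at 12.7 ± 1.11. Kcnj2 (7.47 ± 2.46) and Lrrc8a (7.37 ± 1.38) overlapped each other, and below them came Lrrc8d (2.53 ± 0.603), Kcnk6 (1.70 ± 0.0982) and Lrrc8c (1.08 ± 0.174). Kcna3 was last at 0.115 ± 0.123. All other neighbours in this order had ranges that did not overlap. The places of Hvcn1 and Lrrc8a may be too low, since each shares many exon bases with another gene. 

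**Figure D1:**
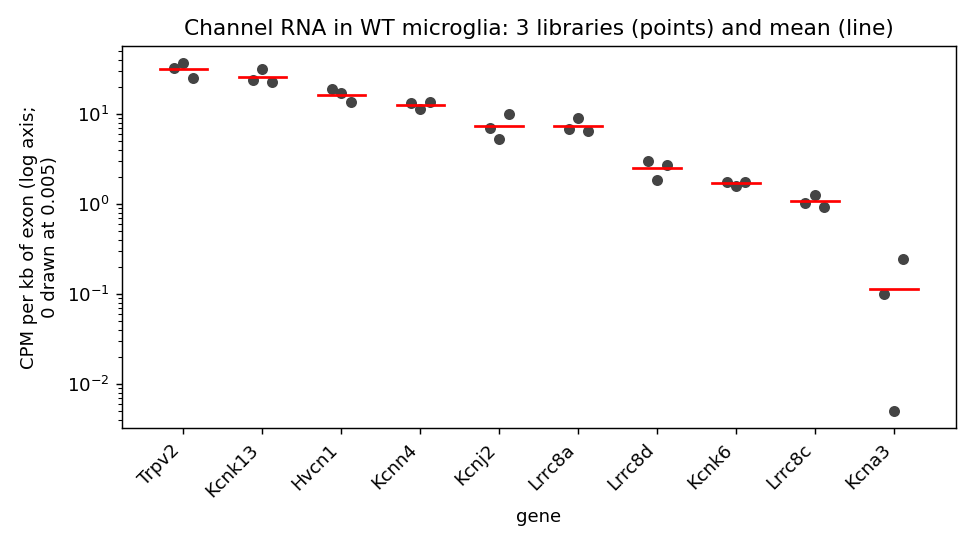
RNA level of the 10 channel genes in WT microglia, in CPM per kilobase of exon on a log axis; points are the 3 libraries, lines the means, and a library at 0 is drawn at 0.005. Trpv2 and Kcnk13 lead with means of 31.7 and 26.1, and Kcna3 is last at 0.115.

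Across all 18 libraries Lrrc8c and Kcnn4 were the most variable of the 9 measurable genes. Lrrc8c ranged from 2.85 to 17.8 CPM, a ratio of 6.22, and Kcnn4 from 20.7 to 90.5 CPM, a ratio of 4.38. At the other end, Kcnk13 ranged only from 71.5 to 104 CPM, a ratio of 1.46. In a test of any difference among the 6 genotypes, 2 of the 9 genes passed an adjusted p of 0.05 (edgeR quasi-likelihood test, Benjamini-Hochberg adjustment over all genes), where 7.18% of all genes tested did. They were Kcnn4 (adjusted p = 0.00219) and Lrrc8c (adjusted p = 0.0129). Kcnk6 did not pass (adjusted p = 0.0859), nor did the other 6.

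Kcnn4 encodes KCa3.1, a potassium channel that calmodulin opens when calcium in the cell rises. The gene lies on the plus strand of chr7 at 24370263 to 24386690 (mm10, GENCODE M21). In WT the libraries held 67.9, 58.6 and 68.9 CPM of Kcnn4. In Tbk1+/- they held 37.4, 22.2 and 37.6 CPM, all below every WT library. In Tak1ΔM/+ they held 30.4, 71.5 and 60.0 CPM, so replicate 1 stood far below the other 2, which lay within or above the WT range. In the double heterozygotes they held 20.7, 23.4 and 23.2 CPM, 34.5% of the WT mean on average and with little spread.

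The 2 genotypes with a Ripk1D138N allele stood apart from those low groups. The libraries labelled Ripk1 homozygous held 75.0, 64.0 and 90.5 CPM of Kcnn4, and those labelled triple heterozygous held 80.2, 70.4 and 69.5 CPM. None of these 6 fell below the lowest WT library. Over the whole set, Kcnn4 was below the lowest WT library in 7 libraries: all 3 Tbk1+/-, all 3 double heterozygous libraries and Tak1ΔM/+ replicate 1.

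**Figure D2:**
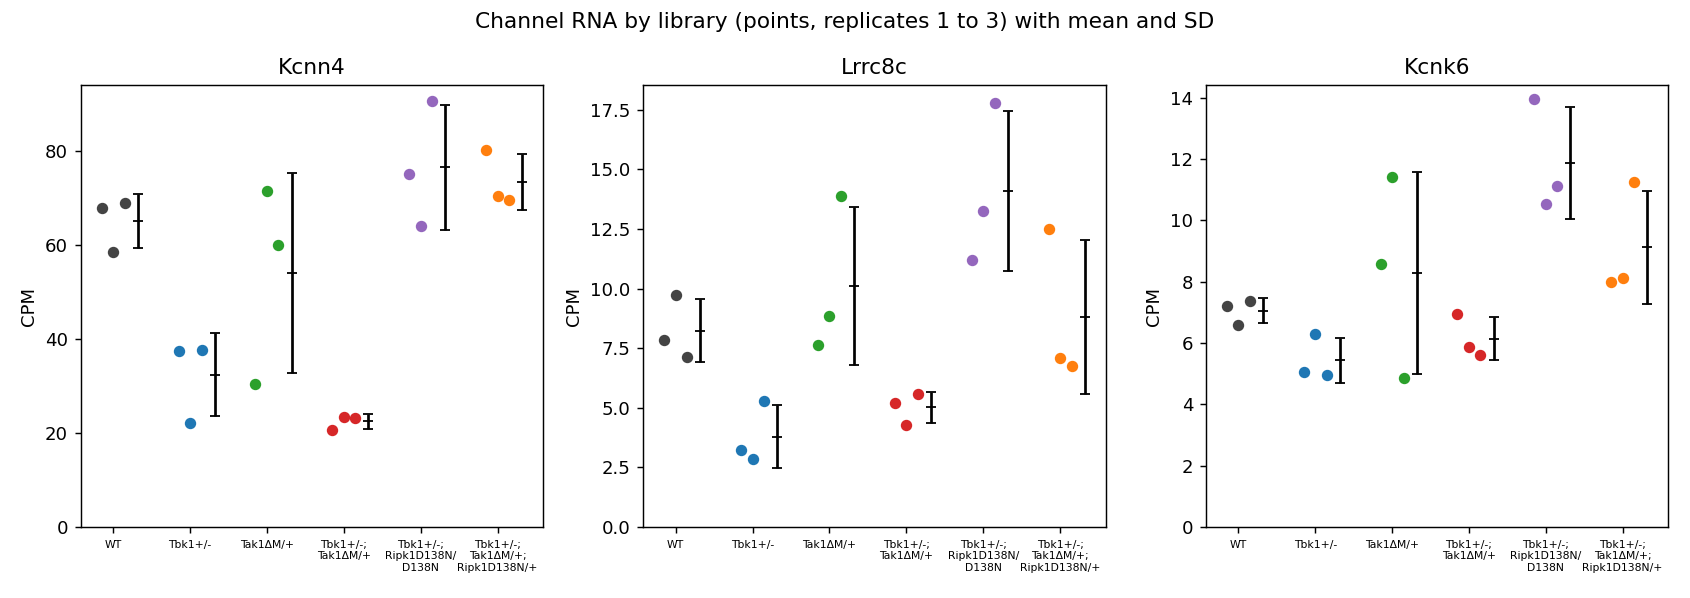
CPM of Kcnn4, Lrrc8c and Kcnk6 in each of 18 libraries, 3 per genotype (points, in replicate order), with the mean and SD of each genotype in black. Kcnn4 lies between 20.7 and 23.4 CPM in the double heterozygotes and between 58.6 and 90.5 CPM in WT and in both genotypes with a Ripk1D138N allele.

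In the double heterozygotes against WT, Kcnn4 fell 2.90-fold (log2 fold change -1.54, SE 0.25, edgeR adjusted p = 0.0022). It was the single member called, where 6.07% of all genes tested were called. Against Tak1ΔM/+ alone it fell 2.40-fold (log2 fold change -1.27, SE 0.25, edgeR adjusted p = 0.0104), again as the single member called, beside 2.79% of all genes. That call was lost without Tak1ΔM/+ replicate 2 (adjusted p = 0.0733), without Tak1ΔM/+ replicate 3 (0.0535), without double heterozygous replicate 1 (0.0678) and in limma-voom (0.0504). It was lost too with the mitochondrial share of reads (adjusted p = 0.0704) or the Y-linked level (0.102) in the model. The Y-linked level is the RNA of genes on the Y chromosome. On unscaled totals it was 3.02, 0 and 0 CPM in Tak1ΔM/+ and 93.8, 99.5 and 75.9 CPM in the double heterozygotes. Within this comparison it cannot be told apart from genotype. Against Tbk1+/- the Kcnn4 difference was -0.53 on the log2 scale (SE 0.25, edgeR adjusted p = 0.171), and passed without Tbk1+/- replicate 2 (adjusted p = 0.0456). There 0 members were called by edgeR, DESeq2 or limma-voom and 1 had an unadjusted p under 0.05, beside 14.7% of all genes called. These comparisons share the double heterozygous libraries.

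In Tbk1+/- against WT, Kcnn4 was 2.01-fold lower on average, but the difference did not pass in the fit over all genes (log2 fold change -1.01, SE 0.25, edgeR adjusted p = 0.169, unadjusted p = 0.000739). DESeq2 called it (adjusted p = 0.0163), as did edgeR with no filter on low counts (adjusted p = 3.19e-05). Of the 9 genes, 0 were called by edgeR and 2 had an unadjusted p under 0.05, beside 0.0521% of all genes called. In Tak1ΔM/+ against WT, Kcnn4 differed by -0.27 on the log2 scale (SE 0.24, edgeR adjusted p = 0.793), with an interval of 2 SE from -0.76 to 0.22. There 0 of the 9 genes were called by edgeR, DESeq2 or limma-voom and 0 had an unadjusted p under 0.05, beside 0.0149% of all genes called. The test of whether the 2 heterozygous alleles together differ from the sum of each alone gave -0.26 for Kcnn4 (log2, SE 0.35, edgeR adjusted p = 0.775, interval of 2 SE from -0.96 to 0.44). In that interaction test 0 members were called by any of the 3 tools and 0 had an unadjusted p under 0.05, beside 1.75% of all genes called.

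In the libraries labelled triple heterozygous, Kcnn4 rose 3.27-fold against the double heterozygotes (log2 fold change 1.71, SE 0.25, edgeR adjusted p = 0.00165). It was the single member called, beside 2.45% of all genes. Against WT the same libraries differed by 0.17 (log2, SE 0.24, adjusted p = 0.948, interval of 2 SE from -0.31 to 0.66), and all 3 lay above the highest WT library. In that comparison 0 of the 9 genes were called by edgeR, DESeq2 or limma-voom and 0 had an unadjusted p under 0.05, beside 0% of all genes.

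In the libraries labelled Ripk1 homozygous, Kcnn4 rose 2.36-fold against Tbk1+/- (log2 fold change 1.24, SE 0.25, edgeR adjusted p = 0.0411). Kcnn4 and Lrrc8c were the 2 members called, beside 0.521% of all genes. Without the 5 libraries whose Tbk1 RNA goes against their label, 1 library of that genotype was left, with 54.9 CPM of Tbk1 and 64.0 CPM of Kcnn4. The difference in Kcnn4 was then 0.99 (log2, edgeR adjusted p = 0.576), that in Lrrc8c 1.82 (adjusted p = 0.224), and 0 members were called, with the lone library assumed to vary like the other groups. Both calls were also lost when any of Tbk1+/- replicates 1 and 3 or Ripk1 homozygous replicates 1 and 3 was left out. The edgeR adjusted p was then up to 0.176 for Kcnn4 and 0.130 for Lrrc8c. Both were lost too with the Y-linked level in the model. On unscaled totals that level was 0, 42.9 and 0 CPM in the libraries labelled Ripk1 homozygous and 59.8, 187 and 123 CPM in Tbk1+/-. Within this comparison the Y-linked level cannot be told apart from genotype. Kcnn4 alone also lost its call without WT replicate 1 or 2, Tak1ΔM/+ replicate 3, any of the 3 double heterozygous libraries, or triple heterozygous replicate 2 or 3, with an adjusted p of at most 0.0687. Without Tbk1+/- replicate 2, Kcnk6 (adjusted p = 0.0405) and Lrrc8d (adjusted p = 0.0325) were called as well. Against WT, Kcnn4 in this genotype differed by 0.23 (log2, SE 0.24, edgeR adjusted p = 0.986), with an interval of 2 SE from -0.25 to 0.72. There 0 of the 9 genes were called by edgeR, DESeq2 or limma-voom and 2 had an unadjusted p under 0.05, beside 0% of all genes called.

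The mitochondrial share of counts moved with some of these groups. It was 0.671 to 1.62% in WT, 0.367 to 0.512% in the double heterozygotes and 1.82 to 2.20% in Tbk1+/-. These ranges did not overlap, so between these groups the share cannot be told apart from genotype. Tak1ΔM/+ replicate 1, low in Kcnn4, held 0.453%, against 1.41 and 1.5% in the other 2 libraries of its group. The libraries labelled Ripk1 homozygous, replicates 1 and 3, held 0.451 and 0.449%, with Kcnn4 at 75.0 and 90.5 CPM. Those labelled triple heterozygous held 0.370, 1.10 and 1.05%, with Kcnn4 at 80.2, 70.4 and 69.5 CPM. With that share in the model, Kcnn4 was called in the double heterozygotes against WT and in the libraries labelled triple heterozygous against the double heterozygotes. It was not called in the double heterozygotes against Tak1ΔM/+ (adjusted p = 0.0704) or in the libraries labelled Ripk1 homozygous against Tbk1+/- (adjusted p = 0.210), and neither was Lrrc8c in the latter (adjusted p = 0.167). The part of the mitochondrial share in the levels of Kcnn4 was not tested beyond these fits.

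**Figure D3:**
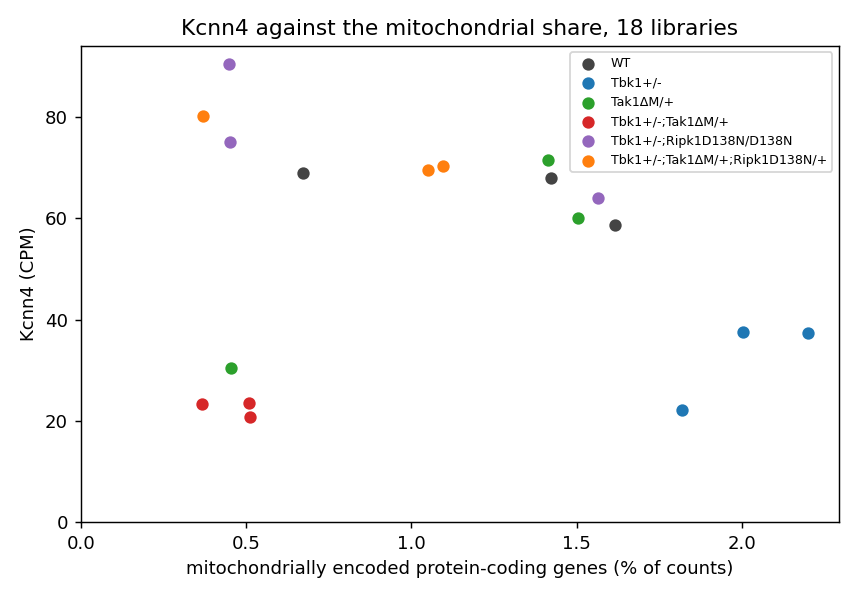
Kcnn4 in CPM (vertical) against the percent of counts from mitochondrially encoded protein-coding genes (horizontal) in 18 libraries, 1 point each, coloured by genotype. The 3 double heterozygous libraries lie at 20.7 to 23.4 CPM and 0.367 to 0.512%. Near the same share, 2 libraries labelled Ripk1 homozygous lie at 75.0 and 90.5 CPM. Replicate 1 labelled triple heterozygous lies there at 80.2 CPM and Tak1ΔM/+ replicate 1 at 30.4 CPM.

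Some genes of the cell cycle and some microglia markers changed in some, but not all, of the comparisons in which Kcnn4 was called. Of 12 cell cycle genes, 7 fell in the double heterozygotes against WT and 5 were not called, beside 6.07% of all genes called. The median log2 difference over the 12 was -2.28, against 0.00 over all genes. Mki67, the marker of cycling cells, was at 1.19 to 2.14 CPM in that genotype and 7.89 to 22.6 CPM in WT. In Tbk1+/-, where Kcnn4 was also low, Mki67 was higher in 2 libraries, at 70.9 and 61.1 CPM, and 15.4 CPM in replicate 2. Kcnn4 was called in the libraries labelled Ripk1 homozygous against Tbk1+/-. There 0 of the 12 cell cycle genes and 0 of the 11 microglia markers were called, beside 0.521% of all genes. Kcnn4 was not called in the double heterozygotes against Tbk1+/- or in the interaction. There 9 (beside 14.7% of all genes) and 7 (beside 1.75%) of the 12 cell cycle genes were called, all lower. The summed level of the border macrophage markers was 1168 and 1343 CPM in Tbk1+/- replicates 1 and 3 and 586 CPM in replicate 2, which had the lowest Kcnn4 of the 3. Of the 11 microglia markers tested, 3 rose in the libraries labelled triple heterozygous against the double heterozygotes, beside 2.45% of all genes called. These were Gpr34, to 64.8 ± 9.43, Itgam, to 76.1 ± 13.6, and Cx3cr1, to 520 ± 36.05 CPM (SD, n = 3), the last named after its values were seen. What part cell cycle, microglial state or macrophage type had in the levels of Kcnn4 was not tested. In bulk cultures fewer cells of a type and less RNA per cell cannot be told apart.

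Kcnk13 and Kcnk6 encode 2-pore-domain potassium channels of the THIK and TWIK families, which carry background current; THIK-1, the product of Kcnk13, is the main one of resting microglia. Kcnk13, on chr12 at 99964499 to 100062682, was the steadiest of the 10 genes over the 18 libraries. The WT libraries held 73.8, 98.6 and 71.5 CPM and those of the double heterozygotes 103, 99.0 and 104 CPM, so these groups just failed to overlap. The difference of 0.33 did not pass (log2, SE 0.13, edgeR adjusted p = 0.144), and its interval of 2 SE ran from 0.07 to 0.59. Tbk1+/- held 103, 100.3 and 84.4 CPM, Tak1ΔM/+ 89.4, 81.2 and 85.8 CPM, and the libraries labelled with a Ripk1D138N allele 77.9 to 95.3 CPM. In none of the 11 tests was Kcnk13 called, in contrast to Kcnn4, although the levels of both were of the same order in WT.

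Kcnk6, on the minus strand of chr7 at 29221926 to 29232515, was a minor transcript of 52 to 270 reads a library. The WT libraries held 7.22, 6.6 and 7.37 CPM and those of Tbk1+/- 5.06, 6.28 and 4.97 CPM. The libraries labelled Ripk1 homozygous held 14.0, 10.5 and 11.1 CPM, above all 6 of those. Against Tbk1+/- the log2 difference was 1.13 (SE 0.28), which did not pass in edgeR (adjusted p = 0.0821) and passed in DESeq2 (adjusted p = 0.0108). Tak1ΔM/+ was spread from 4.87 to 11.4 CPM and the double heterozygotes lay at 5.62 to 6.95 CPM. Those labelled triple heterozygous held 8.0, 8.12 and 11.2 CPM, all above those of the double heterozygotes, with a log2 difference of 0.57 (SE 0.28, edgeR adjusted p = 0.344).

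Kcnj2 encodes Kir2.1, the inward rectifier that holds the resting potential, and lies on chr11 at 111066164 to 111076821. Its libraries overlapped between all genotypes. WT alone spanned 38.4, 28.5 and 55.1 CPM. The lowest value of all was 18.9 CPM in replicate 3 labelled triple heterozygous, whose other 2 libraries held 40.9 and 36.8 CPM. No test of Kcnj2 passed. The largest difference was -0.50 in that genotype against the double heterozygotes (log2, SE 0.29, edgeR adjusted p = 0.438).

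Kcna3 encodes Kv1.3, the voltage-gated potassium channel described in activated microglia, and lies on chr3 at 107036169 to 107038070 with a model of 1 exon of 1902 bases. It was barely detected: 48 reads in 18 libraries, 0 reads in 7 libraries, 1 to 3 in 6 and at most 9 in the other 5. The highest level was 0.514 CPM, where 3 reads correspond to 0.130 to 0.374 CPM on totals before TMM scaling, depending on the library. No difference between genotypes could be read at this depth.

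**Figure D4:**
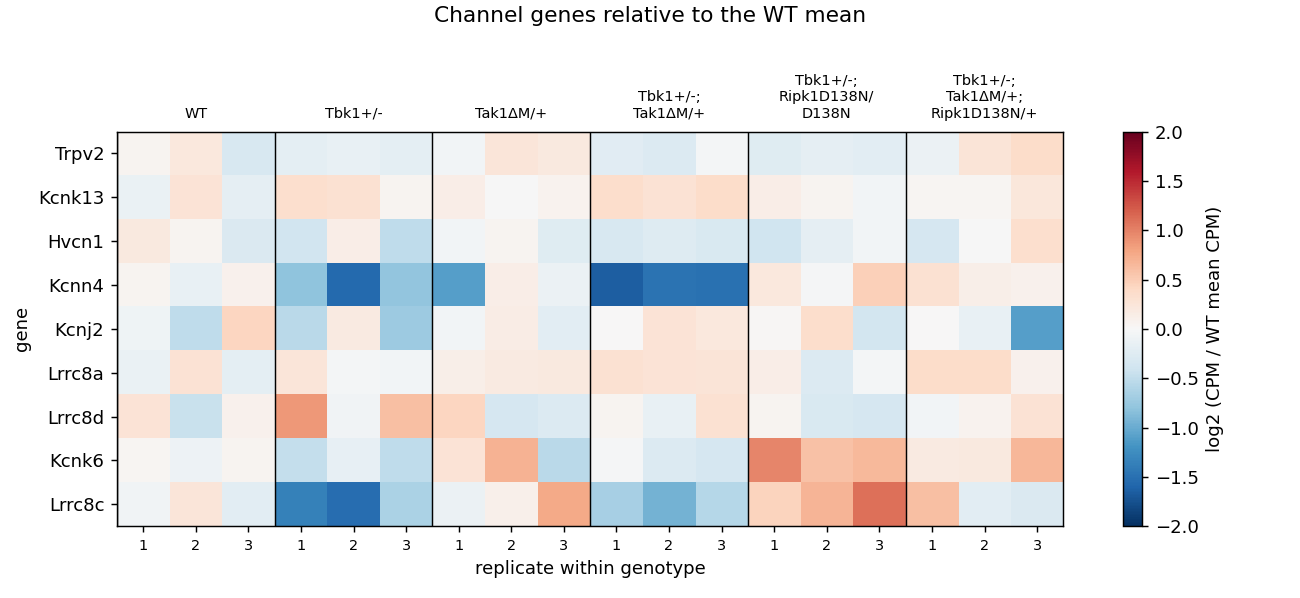
Log2 ratio of each library's CPM to the WT mean for the 9 measurable channel genes (rows, by abundance per length) in 18 libraries (columns, replicates 1 to 3 of each genotype); blue is lower and red higher. Kcnn4 and Lrrc8c are lower in all Tbk1+/- and double heterozygous libraries, while Kcnk13, Trpv2 and Lrrc8a stay close to the WT mean.

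Hvcn1 encodes the voltage-gated proton channel and lies on chr5 at 122206804 to 122242297. Its libraries ranged from 41.4 to 74.6 CPM. WT held 67.1, 61.1 and 48.3 CPM and the double heterozygotes 47.1, 49.1 and 47.5 CPM, a log2 difference of -0.30 (SE 0.19, edgeR adjusted p = 0.41). The highest library was replicate 3 labelled triple heterozygous at 74.6 CPM, and the other 2 held 46.4 and 58.7 CPM. No comparison of Hvcn1 passed. Tctn1, on the other strand, shares 1574 of the 3563 exon bases of Hvcn1. These libraries do not mark strand, so reads from the shared bases may be missing from the Hvcn1 count. Its level per length may then be too low. Over all libraries Tctn1 held 1318 reads and Hvcn1 16755, and the strand setting of the counting is not given in the sources used here.

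Some genes of the phagocyte NADPH oxidase, the partner of the proton channel, changed. Of 7 tested oxidase genes of 9 listed, 3 fell in the double heterozygotes against WT, 0 rose and 4 were not called, beside 6.07% of all genes called. The median log2 difference over the 7 was -0.34. Cybb, its catalytic subunit, fell from 2762 ± 111 to 1308 ± 88.4 CPM (SD, n = 3 each, edgeR adjusted p = 0.000296). The cytosolic subunit Ncf1 fell from 220 ± 19.1 to 129 ± 3.65 CPM and the GTPase Rac2 from 230 ± 22.9 to 149 ± 6.12 CPM. In the libraries labelled triple heterozygous these 3 genes rose against the double heterozygotes, Cybb to 2046 ± 129 CPM and Ncf1 to 239 ± 28.04 CPM (SD, n = 3), beside 2.45% of all genes called. Against Tbk1+/-, 4 oxidase genes fell in the double heterozygotes and Rac1 rose, from 265 ± 62.0 to 424 ± 33.4 CPM, beside 14.7% of all genes called. The microglia markers Gpr34 and Itgam changed in the same direction as Cybb and Ncf1 in the double heterozygotes against WT and in the libraries labelled triple heterozygous against them, and their part in these differences was not tested. Against Tak1ΔM/+, Cybb and Ncf1 fell. None of the 7 was called in Tbk1+/- or Tak1ΔM/+ against WT, in the interaction or in any comparison with the libraries labelled Ripk1 homozygous.

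Trpv2 encodes a calcium-permeable channel of macrophages and lies on chr11 at 62574486 to 62600515. It had the most reads of the 10 genes, 42995 in all. WT held 148, 165 and 114 CPM, Tak1ΔM/+ 136, 168 and 162 CPM, and the double heterozygotes 121, 118 and 139 CPM. The libraries labelled triple heterozygous held 131, 170 and 183 CPM. All these groups overlapped, and no difference passed. The largest was 0.36 in the last group against the double heterozygotes (log2, SE 0.14, edgeR adjusted p = 0.23), which passed with the Y-linked level in the model (adjusted p = 0.0392). In the double heterozygotes against Tak1ΔM/+ it was -0.30 (SE 0.14, edgeR adjusted p = 0.311), and -0.60 with the Y-linked level in the model (adjusted p = 0.0375). In both comparisons the Y-linked levels of the groups did not overlap, so they cannot be told apart from genotype there. For Trpv2, Tbk1+/- was even, at 125, 128 and 124 CPM, as were the libraries labelled Ripk1 homozygous, at 120, 125 and 123 CPM.

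The LRRC8 channel is built from the obligatory subunit LRRC8A together with others, and LRRC8C and LRRC8D shape what it conducts. Lrrc8c and Lrrc8d are neighbours on the plus strand of chr5, at 105519388 to 105613018 and 105699969 to 105832436. Lrrc8a lies on chr2 at 30237715 to 30263790. The 3 subunits did not move alike.

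Lrrc8c was the subunit that varied. WT held 7.85, 9.72 and 7.14 CPM and Tbk1+/- 3.23, 2.85 and 5.31 CPM, all below WT. The double heterozygotes held 5.20, 4.28 and 5.57 CPM, also below every WT library. The libraries labelled Ripk1 homozygous held 11.2, 13.2 and 17.8 CPM, all above WT. Tak1ΔM/+ held 7.61, 8.85 and 13.9 CPM and the libraries labelled triple heterozygous 12.5, 7.10 and 6.77 CPM, both spread around the WT range. These levels rest on 38 to 331 reads a library.

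Lrrc8c rose 3.72-fold in the libraries labelled Ripk1 homozygous against Tbk1+/- (log2 fold change 1.89, SE 0.33, edgeR adjusted p = 0.023). Of 28 other settings, 20 kept this call, and those that lost it left the log2 difference between 1.65 and 2.20. Against WT the same libraries differed by 0.77 (log2, SE 0.32, edgeR adjusted p = 0.934). Tbk1+/- differed from WT by -1.12 (log2, SE 0.33, adjusted p = 0.273) and the double heterozygotes from WT by -0.71 (SE 0.32, adjusted p = 0.227). Neither passed in edgeR. In both the groups did not overlap, which with 3 libraries each is weak. The same held for Kcnn4 in the libraries labelled triple heterozygous against WT (edgeR adjusted p = 0.948). The double heterozygotes against Tak1ΔM/+ gave -0.999 (log2, SE 0.32, adjusted p = 0.117) and the libraries labelled triple heterozygous against the double heterozygotes 0.80 (SE 0.32, adjusted p = 0.231).

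**Figure D5:**
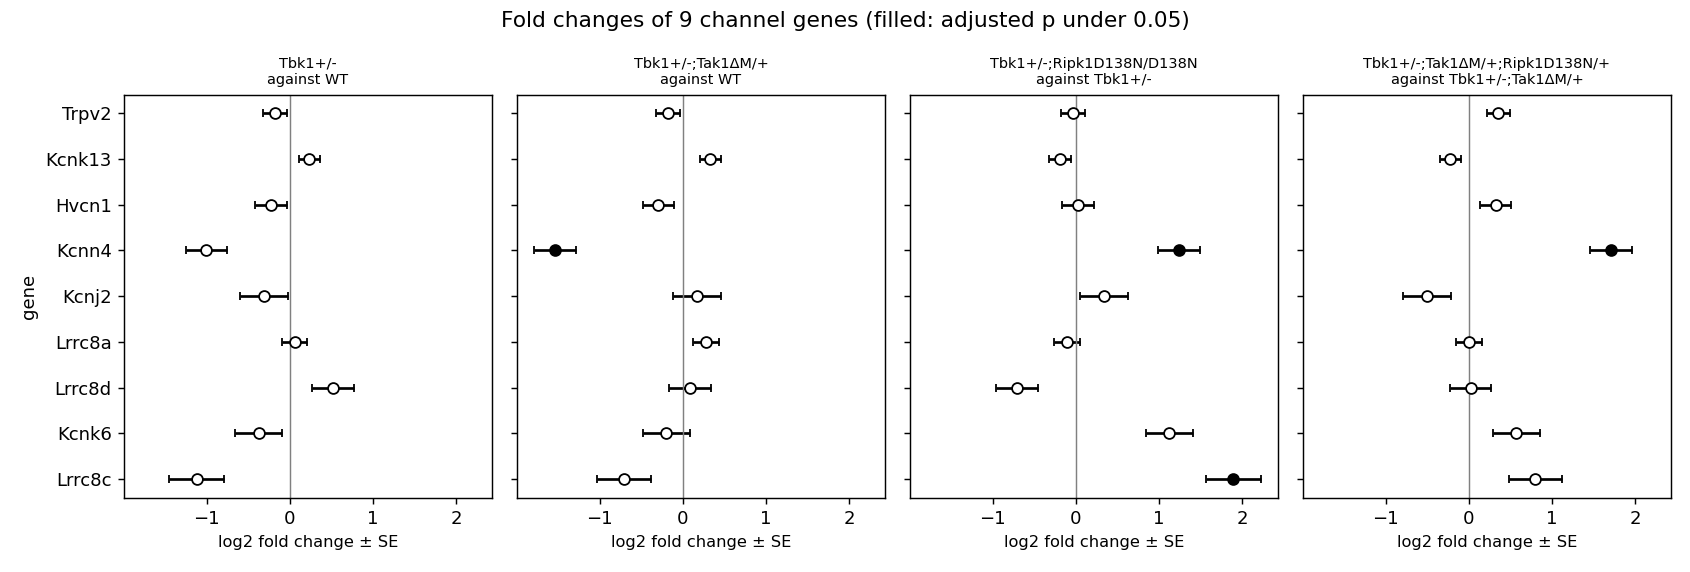
Log2 fold change with SE (horizontal) of the 9 measurable channel genes (rows) in 4 comparisons (panels); filled points have an edgeR adjusted p under 0.05. Kcnn4 is called at -1.54, 1.24 and 1.71 and Lrrc8c at 1.89, and all other points are open.

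Lrrc8a, the subunit every such channel needs, was even across the set. Its libraries ranged from 26.4 to 41.1 CPM, a ratio of 1.56. WT held 29.1, 38.6 and 27.6 CPM and the double heterozygotes 39.3, 38.5 and 37.8 CPM, a log2 difference of 0.28 (SE 0.16, edgeR adjusted p = 0.331). No test of Lrrc8a passed. The gene model Gm28035 shares 2853 of its 4308 exon bases on the same strand and holds 18 reads, so reads from the shared bases may be missing from the Lrrc8a count, and its level per length may be too low.

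Lrrc8d spread more within groups than Lrrc8a. WT held 38.3, 23.5 and 33.8 CPM and Tbk1+/- 58.4, 30.4 and 48.3 CPM. The libraries labelled Ripk1 homozygous held 33.02, 25.7 and 25.3 CPM, overlapping Tbk1+/-. That difference was -0.71, opposite in sign to that of Lrrc8c (log2, SE 0.25), and did not pass (edgeR adjusted p = 0.187). The double heterozygotes lay at 28.7 to 39.4 CPM. Of the other subunits, Lrrc8b ranged from 1.52 to 11.1 CPM and Lrrc8e was at 0 in 14 libraries, and neither was called.

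The other channels and transporters of these families were followed as lists. Of 41 further potassium channel genes and subunits, 9 were tested and 0 were called in any comparison, beside 0 to 14.7% of all genes called. With 9 genes, 0 called is near these shares and is not a result about the list. Of the 41, Kcnab2 and Tmem175 had medians of 51.3 and 43.4 CPM, and no other gene exceeded 3.75 CPM in any library. Kcnn4 was the single potassium channel gene called in the main edgeR fit among the 2 groups together. Of 20 TRP and mechanosensitive channel genes, 12 were tested and 1 rose in the double heterozygotes against WT, beside 6.07% of all genes called. With 1 gene called of each, the shares of this list and of the chloride channel and calcium lists in that comparison were near this background and are not results about the lists. The TRP list's gene was Tpcn2, a cation channel of lysosomes, at 48.4 ± 5.67 CPM in WT and 96.0 ± 14.0 CPM in the double heterozygotes (SD, n = 3, edgeR adjusted p = 0.0015). It fell to 49.4 ± 3.94 CPM in the libraries labelled triple heterozygous (edgeR adjusted p = 0.0023), the opposite order to Kcnn4. In the double heterozygotes against Tbk1+/-, 2 of the 12 rose, Tpcn2 and Piezo1, near the 14.7% of all genes called there. Piezo1, a channel opened by stretch, rose from 28.2 ± 3.68 CPM in Tbk1+/- to 56.6 ± 10.9 CPM in the double heterozygotes.

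Of 26 listed chloride and anion channel genes in the table, 19 were tested, and 1, the chloride and proton exchanger gene Clcn3, fell in the double heterozygotes against WT, from 70.9 ± 13.6 to 46.1 ± 2.84 CPM (SD, n = 3). Clcn7, the lysosomal exchanger, rose against Tbk1+/- from 184 ± 14.2 to 243 ± 15.2 CPM. Of 18 tested calcium entry and calmodulin genes, which act upstream of KCa3.1, 1 rose against WT, P2rx7, the ATP-gated channel, from 74.3 ± 2.65 to 102 ± 2.27 CPM. Orai1, the pore of store-operated calcium entry, rose against Tbk1+/- from 13.2 ± 1.68 to 34.2 ± 5.11 CPM. Among the genes of cell volume and ion transport, the potassium-chloride cotransporter gene Slc12a4 rose against WT, from 32.1 ± 1.52 to 55.6 ± 9.07 CPM. Of 8 genes of the NLRP3 inflammasome, 0 were called against WT, beside 6.07% of all genes. In the double heterozygotes against Tbk1+/-, 1, Nek7, rose, beside 14.7% of all genes called. With 1 gene called of each there, the shares of the chloride channel, calcium and NLRP3 lists were below this background. They are not results about the lists. The median log2 differences of these lists in the double heterozygotes against WT lay between -0.04 and 0.21, beside 0.00 over all genes. None of the lists had a gene called in Tbk1+/-, Tak1ΔM/+, the Ripk1 homozygotes or the triple heterozygotes against WT.

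The genes whose pattern was most like that of each channel were taken from the 8642 genes averaging 5 CPM or more, by Pearson correlation of log2(CPM + 1) over the 18 libraries. Libraries of 1 genotype share that genotype, so these correlations are descriptions. Kcnn4 was most like S100a6 (r = 0.90), a small calcium-binding protein gene, and Ptpn7 (r = 0.89), a phosphatase gene of blood cells. Lrrc8c was most like Hlx (r = 0.82) and Phykpl (r = 0.80). Trpv2 was most like Fabp3 (r = 0.89) and Rnh1 (r = 0.88), and Hvcn1 like Mamdc2 (r = 0.84) and Mical1 (r = 0.80). Kcnj2 was most like Itga9 (r = 0.80) and Pcgf5 (r = 0.76), and Kcnk6 like Commd7 (r = 0.79) and Nmt1 (r = 0.78). Kcnk13 was most like Washc5 (r = 0.79) and Pex11a (r = 0.76), Lrrc8a like Rrp1b (r = 0.76) and Gmcl1 (r = 0.73), and Lrrc8d like Mgat4a (r = 0.80) and Hspbap1 (r = 0.76). Among the channels themselves, Kcnn4 and Lrrc8c were the closest pair (r = 0.76 over 18 libraries), followed by Hvcn1 and Trpv2 (r = 0.67). The most negative pair was Kcnn4 and Kcnk13 (r = -0.72), followed by Lrrc8c with Lrrc8d (r = -0.58) and with Kcnk13 (r = -0.56). In 6 libraries, all 3 Tbk1+/- and all 3 double heterozygous libraries, both Kcnn4 and Lrrc8c lay below the lowest WT library.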

How the data were processed

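The data are gene counts from Smart-seq2 libraries (oligo(dT)-primed, Nextera XT, 50-base paired reads), which do not mark strand. The authors deposited 1 table of whole-number counts per gene and library. Per the submitters' processing notes, STAR, featureCounts and mm10 were used; the labels' extract protocol names RSEM instead, and versions and the annotation are not given in the sources used here. Gene names and exon lengths came from GENCODE M21 (50376 of 50686 identifiers matched).

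Counts were fitted with edgeR 4.0.16 (quasi-likelihood, TMM scaling, all 18 libraries, 1 term per genotype, genes kept by filterByExpr) in R 4.3.3, with Benjamini-Hochberg adjustment over 13447 genes in each of 11 tests. A gene is called at an adjusted p under 0.05. The SE is the log2 fold change divided by the square root of F. The fit was tested on simulated data. CPM use TMM-scaled totals. Depth limits precision, and on totals before TMM scaling 3 reads equal 0.130 to 0.374 CPM. Rows with no gene symbol held at most 0.00437% of counts in any library.

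The members and gene lists were chosen with earlier results of these data known. All members are named; from each list, genes called with the largest fold changes are named, up to 4 for the double heterozygotes against WT and up to 2 otherwise; 1 such result is not reported here. Alternatives were DESeq2 1.42.0, limma-voom (limma 3.58.1), DESeq2 size factors, other low-count filters, only the libraries compared, a replicate block, mitochondrial share or Y-linked level as covariates, each library left out, and, added after seeing the data, the 5 libraries with WT-like Tbk1 RNA left out. Replicate numbers did not pair the samples: correlations of deviations from the genotype means of same-numbered libraries ran from -0.32 to 0.33.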

Additional observations from a re-analysis of the deposited data

How the results depend on the processing

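Signs were checked only for member differences with an unadjusted p under 0.05 in the main edgeR fit. None of these reversed its sign, and smaller differences were not checked. Kcnn4 stayed called in the double heterozygotes against WT in 29 of 29 alternatives (log2 fold change -1.62 to -1.41, edgeR, DESeq2 or limma adjusted p up to 0.0186), and in the libraries labelled triple heterozygous against the double heterozygotes in 27 of 27 (1.55 to 1.73, adjusted p up to 0.0191). The other calls depended on the setting. In Tbk1+/- against WT, 1 member was called with no low-count filter and 1 in DESeq2, in place of 0. In the double heterozygotes against Tbk1+/-, leaving out 1 library gave 0 to 1 members, the 1 being without Tbk1+/- replicate 2. Against Tak1ΔM/+ it gave 0 to 1, and limma-voom and the mitochondrial covariate each gave 0. In the Ripk1 homozygotes against Tbk1+/-, where 2 members were called, leaving out 1 library gave 0 to 4. There the fit of only the libraries compared, the mitochondrial covariate, the Y-linked covariate and the fit without the 5 libraries with WT-like Tbk1 RNA each gave 0. The fit with the replicate number as a block gave 1 in that comparison (Kcnn4 adjusted p = 0.0545) and changed no other count of members; the numbers do not pair the samples. The Y-linked covariate gave 2 in place of 1 in the triple heterozygotes against the double heterozygotes. The cause of these changes was not tested. Kcnn4 in the Ripk1 homozygotes against Tbk1+/- was called in 11 of 28 alternatives and Lrrc8c in 20 of 28.

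Counts over all genes moved by more than 1.5 times. In the double heterozygotes against WT, 816 genes were called, 288 to 1003 with 1 library left out, 216 with the mitochondrial covariate and 1453 in DESeq2. Against Tbk1+/- the count of 1974 became 49 with the mitochondrial covariate and 1071 to 2213 with 1 library left out. Against Tak1ΔM/+ 375 became 150 with the mitochondrial and 906 with the Y-linked covariate, and 111 to 568 with 1 library left out. For the Ripk1 homozygotes against Tbk1+/- 70 became 0 with only the libraries compared, 754 with no filter, and 2 to 607 with 1 library left out. For the triple heterozygotes against the double heterozygotes 330 became 864 with no filter and 87 to 449 with 1 library left out. For the interaction 235 became 14 with the mitochondrial covariate, 927 with no filter, and 46 to 712 with 1 library left out. For any difference among genotypes 966 became 183 with the mitochondrial covariate and 2850 with no filter, and 320 to 1336 with 1 library left out. For Tbk1+/- against WT 7 became 293 with no filter, 0 with only the libraries compared, and 1 to 334 with 1 library left out. For Tak1ΔM/+ against WT 2 became 251 with no filter, 0 with only the libraries compared, and 0 to 7 with 1 library left out. With no filter, 0 became 59 for the libraries labelled Ripk1 homozygous and 193 for those labelled triple heterozygous against WT; with 1 library left out these were 0 and at most 1. Depth limits Kcna3, Lrrc8c and Kcnk6 most.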
